A study of Mus musculus with 11 samples.

Results

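The integrin and laminin chain genes of the mouse mammary epithelium were measured by RNA-seq in 11 libraries. The members were all genes whose symbol names an integrin α or β chain or a laminin α, β or γ chain, and 37 of the 27179 genes in the count tables met this rule. They comprised 18 integrin α chains, 8 integrin β chains, 5 laminin α chains, 3 laminin β chains and 3 laminin γ chains. Freshly sorted cells came from the mammary glands of virgin wild type FVB/N females, labelled as 8 weeks old, and were represented by 3 independent samples per population. MaSC/basal cells (CD29hi CD24+) are enriched for mammary stem cells and also hold myoepithelial cells, LP cells (CD29lo CD24+ CD61+) are enriched for luminal progenitors, and ML cells (CD29lo CD24+ CD61-) are enriched for mature luminal cells. The mammosphere library was made from MaSC/basal cells kept without attachment in culture for 1 week, and the library of the Comma Dβ line from a cell line whose label gives a mid-pregnant Balb/c origin, with 1 library each and therefore no replicate. CD29 is the protein of Itgb1 and CD61 the protein of Itgb3, so both genes encode antigens on which the populations were sorted, and their differences are no independent finding.

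Integrins are transmembrane receptors made of 1 α and 1 β chain that tie the cytoskeleton to the extracellular matrix. Laminins are secreted trimers of 1 α, 1 β and 1 γ chain and form, with type IV collagen and nidogen, the basement membrane that surrounds the mammary ducts. In this tissue the basal (myoepithelial) layer touches the basement membrane, whereas most luminal cells face the lumen, and integrins of basal cells are widely used as sorting antigens.

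The libraries held 19958838 to 75795034 counts. Levels are given as CPM, the count scaled to a common library size with TMM factors of 0.863 to 1.21, and 3 reads, taken as the floor, correspond to 0.0399 to 0.160 CPM. Floors cover counting error only. The labels give 3 library batches. Batch 1 held replicate 1 of each sorted population and the mammosphere library, batch 2 held MaSC/basal replicates 2 and 3 with LP and ML replicate 2, and batch 3 held LP and ML replicate 3 with the Comma Dβ library. Markers of the sorted cells followed the labels. The summed level of Krt5, Krt14, Trp63 and Acta2 was 12427 to 16392 CPM in MaSC/basal libraries, 46.3 to 153 in LP libraries and 50.9 to 312 in the ML libraries, and that of Krt8, Krt18 and Krt19 was 466 to 660.0, 8882 to 11269.7 and 10787 to 13144 CPM. Kit and Elf5, which mark luminal progenitors, were both higher in LP than in ML cells, and Esr1, Pgr and Prlr, which mark mature luminal cells, were all higher in ML cells. The submitted name of MaSC/basal replicate 1 contains p53 although its label says wild type. The counts of members called in its comparisons are also given without it, and the other counts hold it unless stated. In these bulk libraries fewer cells of a type cannot be told apart from less RNA per cell.

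More integrin and laminin chains were higher in MaSC/basal cells than were lower there, against LP cells and against ML cells, each comparison taken by itself. Of the 35 members that passed the filter on low counts, 20 (57.1%) were higher in MaSC/basal than in LP cells and 5 (14.3%) were higher in LP cells at an adjusted p under 0.05 by the quasi-likelihood test of edgeR, where 29.4% and 28.0% of all 15422 genes tested were called in these directions. Against ML cells, 21 (60.0%) were higher in MaSC/basal cells and 4 (11.4%) in ML cells, with 28.9% and 29.7% of all genes. Fold changes are of the first population over the second in MaSC/basal over LP, MaSC/basal over ML and LP over ML, so that a negative log2 value is higher in the second. The median log2 fold change of the members was 1.24 against LP and 1.55 against ML cells, whereas the medians over all genes were -0.01 and -0.01. The laminins were almost wholly on the MaSC/basal side, with 9 of 11 higher and 0 lower against LP and 9 higher and 1 lower against ML cells, while of 24 integrins 11 were higher and 5 lower against LP and 12 higher and 3 lower against ML cells. Both comparisons share the MaSC/basal libraries. Without MaSC/basal replicate 1 the counts were 19 higher and 2 lower against LP cells and 22 higher and 3 lower against ML cells. The number higher in LP than in MaSC/basal cells was also 2 without MaSC/basal replicate 2 or LP replicate 1, and 3 without MaSC/basal replicate 3 or LP replicate 2. Without Itgb1 and Itgb3, which the sort used, 19 of 33 members were higher in MaSC/basal cells in each comparison.

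Large differences, with an adjusted p under 0.001 and over 2 log2 units, were found for 10 members higher in MaSC/basal and 2 higher in LP cells (9.64% and 7.15% of all genes), and for 11 higher in MaSC/basal and 1 higher in ML cells (10.2% and 8.09% of all genes). The large calls on the luminal side were Itgb6 and Itgae against LP cells and Itgae against ML cells. Itgae had 0.170 to 0.245 CPM in the MaSC/basal libraries, under the 0.5 CPM of the filter, which it passed through other libraries. LP and ML cells differed less. There 11 members were higher in LP and 7 higher in the ML cells (14.3% and 17.5% of all genes), and the 1 large difference was on the LP side (0.441% of all genes against 0.428% on the ML side, where no member passed by edgeR or limma voom, 1 passed by DESeq2, and 1 was over 2 log2 units at an unadjusted p under 0.05). The split between LP and ML cells was 8 and 8 without TMM scaling, which moves the median of all genes by -0.17 on the log2 scale in this comparison and by 0.15 between MaSC/basal and LP cells. With library batch as a replicate block, 4 members passed the large threshold on the LP side in place of 1, and 0 on the ML side against MaSC/basal cells in place of 1. Without 1 library, the 1 member past the large threshold on the LP side against ML cells became 0 in 8 fits and 4 without ML replicate 2, and 7 rather than 11 members were called on the LP side without ML replicate 3. The 2 higher in LP than in MaSC/basal cells became 0 without MaSC/basal replicate 1 or 2 or LP replicate 1 or 3 and 1 without MaSC/basal replicate 3. The 1 higher in ML than in MaSC/basal cells became 0 without any 1 MaSC/basal replicate, LP replicate 3 or ML replicate 1 or 3. Every called member had the same direction in every batch that held both populations, in 25 of 25, 25 of 25 and 18 of 18 cases. This is no separate support, because libraries that do not overlap must give the same direction in any batch. Only Itgb5 (MaSC/basal against ML) and Itgb7 (LP against ML) were called with overlapping libraries. The plot of fold changes shows the shift of the laminins to the MaSC/basal side in both comparisons with luminal cells.

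**Figure D1:**
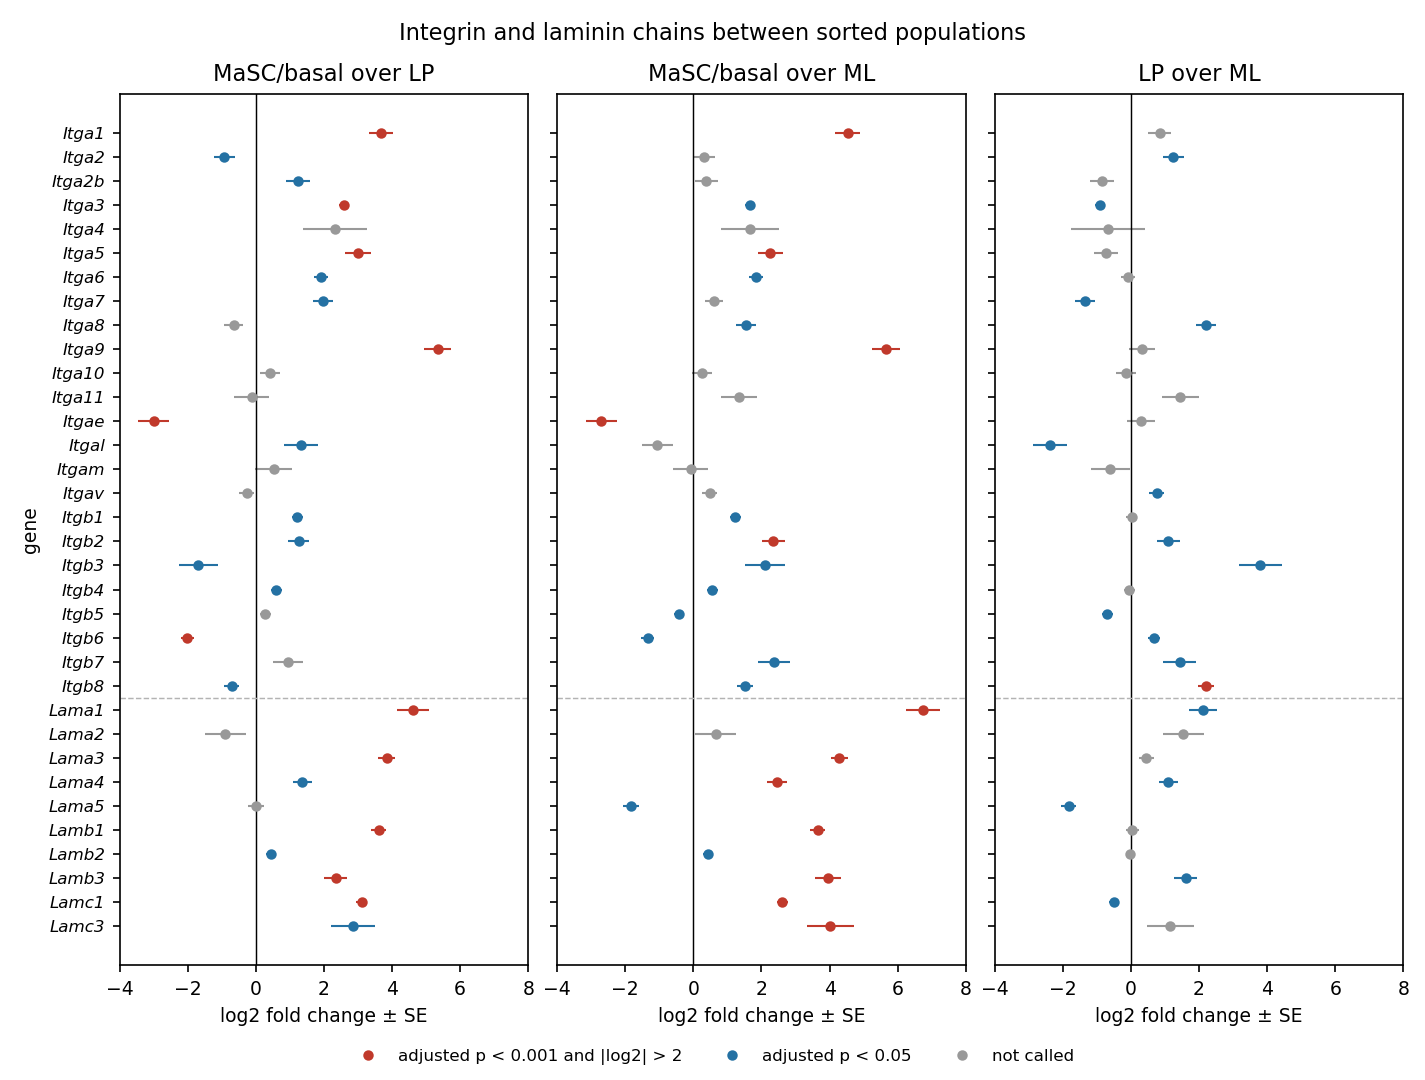
Each point is the log2 fold change of 1 gene between 2 sorted populations (x axis) with its SE, for the genes named (y axis), with integrins above and laminins below the dashed line. Lama1 lies at 4.62 and 6.74 in the comparisons of MaSC/basal with LP and ML cells, and Lama5 at 0.00 and -1.83.

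Among the laminin α chains, which set the receptors that a trimer binds, Lama1 had the widest span. Lama1, the α chain of the laminin of early basement membranes, had 1077, 1025 and 989 CPM in the MaSC/basal libraries, 40.0, 57.4 and 28.4 in LP and 8.09, 16.1 and 4.33 in the ML libraries. The 3 populations did not overlap, with MaSC/basal far above LP and LP above ML. Lama1 was 24.5-fold higher in MaSC/basal than in LP cells (log2 fold change 4.62 ± 0.46, adjusted p = 1.61e-05) and 107-fold higher than in ML cells (log2 fold change 6.74 ± 0.51, adjusted p = 2.36e-06), and it was also higher in LP than in ML cells (log2 fold change 2.12 ± 0.41, adjusted p = 0.0048). Without ML replicate 2 the fold over ML cells was 164 for MaSC/basal cells and 6.68, in place of 4.35, for LP cells. Lama3, the α chain of the laminin that anchors epithelial cells at hemidesmosomes, had 986, 1225 and 1389 CPM in MaSC/basal, 91.5, 72.6 and 86.9 in LP and 60.7, 78.7 and 44.9 in the ML libraries. It was 14.3-fold and 19.5-fold higher in MaSC/basal cells (log2 fold change 3.84 ± 0.24, adjusted p = 1.04e-06, and log2 fold change 4.29 ± 0.25, adjusted p = 5.35e-07). LP and ML libraries overlapped for Lama3 (log2 fold change 0.44 ± 0.22, adjusted p = 0.148).

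Lama5, the α chain of most mature epithelial and vascular basement membranes, ran the other way. Its level was 579.5, 765 and 722 CPM in MaSC/basal, 622, 744 and 695 in LP and 3318, 2071 and 1953 in the ML libraries. All ML libraries lay above all others, and MaSC/basal and LP libraries overlapped. Lama5 was 3.56-fold higher in ML than in LP cells (log2 fold change -1.83 ± 0.23, adjusted p = 0.000932) and 3.55-fold higher than in MaSC/basal cells (log2 fold change -1.83 ± 0.23, adjusted p = 8.28e-05), with no detectable difference between MaSC/basal and LP cells (log2 fold change 0.00 ± 0.23, adjusted p = 0.991). It was the only laminin higher in ML than in MaSC/basal cells at this threshold. Lama4, the α chain typical of vessels, muscle and fat, had 83.5, 117 and 119 CPM in MaSC/basal, 47.8, 43.7 and 32.3 in LP and 20.5, 25.7 and 11.5 in the ML libraries, without overlap. It was higher in MaSC/basal cells in both comparisons (log2 fold change 1.37 ± 0.28, adjusted p = 0.00188, and log2 fold change 2.46 ± 0.29, adjusted p = 4.49e-05) and higher in LP than in ML cells (log2 fold change 1.10 ± 0.28, adjusted p = 0.015). Lama2, the α chain of the muscle and nerve basement membrane, had 9.64, 14.0 and 18.3 CPM in MaSC/basal, 12.3, 41.6 and 23.7 in LP and 18.4, 3.97 and 4.33 in the ML libraries. These values overlapped in every comparison and none was called (the smallest adjusted p was 0.0805, between LP and ML cells).

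Some endothelial and pericyte genes were higher in MaSC/basal cells, fewer of them against ML than against LP cells. Of 5 endothelial markers (Pecam1, Cdh5, Kdr, Tek and Emcn), 4 were higher in MaSC/basal than in LP and 2 than in the ML cells (29.4% and 28.9% of all genes). Their summed levels were 43.2 to 89.4 CPM in MaSC/basal libraries, 10.5 to 25.7 in LP libraries and 7.27 to 37.4 in the ML libraries. Of 4 pericyte markers (Rgs5, Pdgfrb, Cspg4 and Kcnj8), 3 were higher than in LP and 2 than in the ML cells, beside the same shares of all genes, with sums of 30.3 to 45.6, 2.79 to 10.2 and 4.41 to 10.0 CPM. None of these 9 genes was at 0 in a sorted library, although antibodies to CD31 (the Pecam1 protein) and CD45 (the Ptprc protein) were used in the sort. Of 5 fibroblast markers (Pdgfra, Col1a1, Col1a2, Dcn and Lum), 0 were higher in MaSC/basal cells and 1 was higher in LP than in those cells. Fibroblast sums spanned 187 to 768 CPM among LP libraries, 352 to 641 among ML libraries and 407 to 536 among those of MaSC/basal cells. LP replicate 2 and ML replicate 1 were highest within their populations for this sum and for Lama2. All 3 tested skeletal muscle markers were higher in ML than in MaSC/basal cells. The part of these markers in the levels of Lama2, Lama4, Itga1 and the other chains also made by vessels was not tested.

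**Figure D2:**
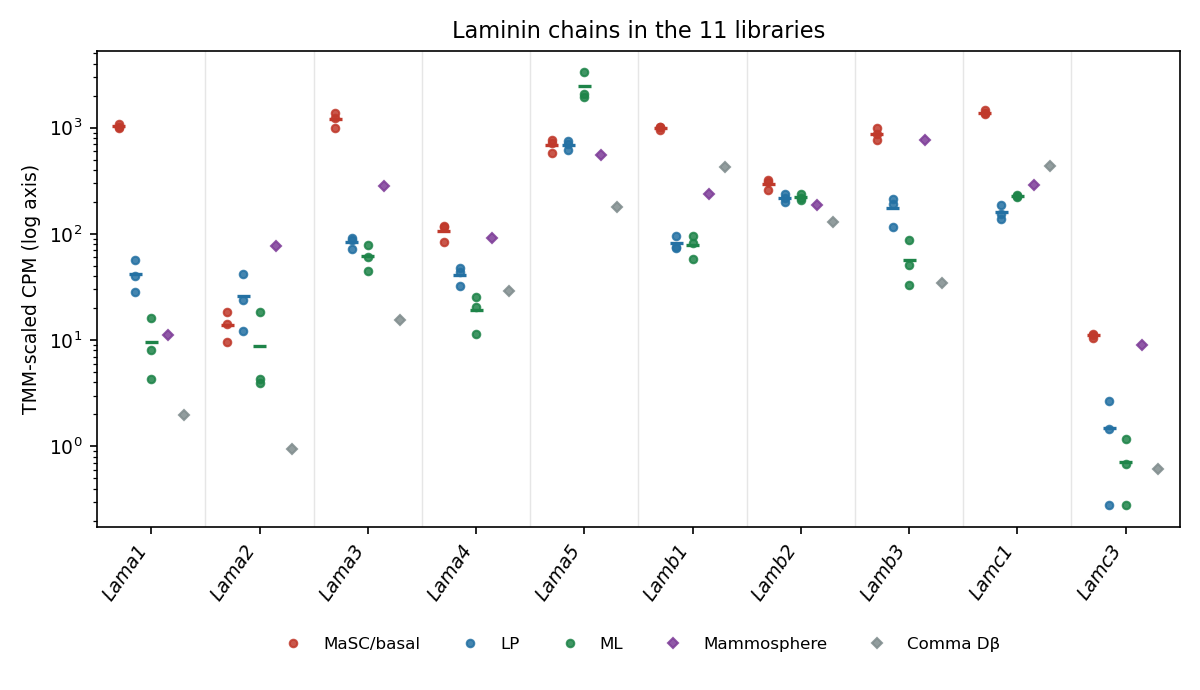
Each symbol is the TMM-scaled CPM (log axis) of 1 laminin chain named (x axis) in 1 library, with circles for the 3 replicates of a sorted population, a bar at their mean, and diamonds for the mammosphere and Comma Dβ libraries. The MaSC/basal points of Lama1 have a mean of 1030.2 ± 44.2 CPM (SD, n = 3), and the highest points of Lama5 are those of ML cells.

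The laminin β chains, and the γ chains Lamc1 and Lamc3, were higher in MaSC/basal cells than in both luminal populations, to very different extents. Lamb1, the widespread β chain, had 1012, 1011 and 958 CPM in MaSC/basal, 74.8, 95.9 and 73.5 in LP and 82.7, 96.2 and 58.1 in the ML libraries and was 12.2-fold and 12.6-fold higher in MaSC/basal cells (log2 fold change 3.61 ± 0.22, adjusted p = 7.75e-07, and log2 fold change 3.65 ± 0.22, adjusted p = 5.86e-07). The luminal populations overlapped. Lamb2, the β chain of kidney, nerve-muscle and vascular basement membranes, differed far less, with 257, 323 and 311 CPM in MaSC/basal, 238, 217 and 201 in LP and 237, 216 and 208 in the ML libraries. Its log2 fold changes were 0.44 ± 0.14 (adjusted p = 0.0195) and 0.43 ± 0.14 (adjusted p = 0.0216), the second with an adjusted p of 0.0542 under the replicate block. The call against LP cells was lost without MaSC/basal replicate 2, LP replicate 2 or LP replicate 3 (adjusted p up to 0.0809), and that against ML cells without MaSC/basal replicate 2, ML replicate 2 or ML replicate 3 (adjusted p up to 0.0728).

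Lamb3, the β partner of Lama3, was lower in steps from MaSC/basal through LP to ML cells. It had 763, 1003 and 879.6 CPM in MaSC/basal, 212, 192 and 117 in LP and 50.8, 86.9 and 33.0 in the ML libraries, without overlap between populations. The log2 fold change was 2.34 ± 0.35 against LP (adjusted p = 0.000254), 3.95 ± 0.37 against ML (adjusted p = 1.06e-05) and 1.61 ± 0.34 between LP and ML cells (adjusted p = 0.00667).

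Lamc1, a γ chain of many trimers, had 1334, 1466 and 1368 CPM in MaSC/basal, 139, 186 and 155 in LP and 226, 231 and 224 in the ML libraries. It was 8.68-fold and 6.11-fold higher in MaSC/basal cells (log2 fold change 3.12 ± 0.16, adjusted p = 3.92e-07, and log2 fold change 2.61 ± 0.16, adjusted p = 6.33e-07) and slightly higher in ML than in LP cells (log2 fold change -0.50 ± 0.15, adjusted p = 0.0278), a call lost without any 1 of LP replicates 1 and 3 and the 3 ML replicates (adjusted p up to 0.117). Lamc3, a γ chain of nerve and skin, was low, with 10.6, 11.2 and 11.5 CPM in MaSC/basal, 0.282, 2.70 and 1.44 in LP and 1.16, 0.279 and 0.684 in the ML libraries, and it was higher in MaSC/basal cells (log2 fold change 2.86 ± 0.64, adjusted p = 0.00347, and log2 fold change 4.03 ± 0.69, adjusted p = 0.000622). The fold over LP cells was 7.28 with all libraries and 13.4 without LP replicate 2, and that over ML cells was 16.3 and, without ML replicate 1, 25.6.

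The promoters of Lamb1 and Lama5 are shown because these chains ran in opposite directions between MaSC/basal and ML cells, and that of Lamb3 because that chain differed between all 3 populations. The RefSeq table (GRCm38.p6) holds 26 promoters of 23 of the 37 members, each from 250 bases before to 50 after a transcript start. The GC box (GGGCGG, either strand) is in capitals. This motif occurred in 35.6% of the 32817 promoters of the table, the AP-1 motif (TGANTCA) in 7.81% and the TATA box (TATAAA) in 13.6%, counting both strands. The Lamb1 window (chr12:31265043-31265342, plus strand) held 2 GC boxes at a GC content of 63.7%, the Lama5 window (chr2:180225810-180226109, minus strand) 4 at 72.7%, and the Lamb3 window (chr1:193301744-193302043, plus strand) none of the 3 motifs at 59.3%, where the median of all promoters was 52.7%. None of the 3 windows held an AP-1 or TATA motif. The table lists a pair of starts for Lamb3, both inside its annotated span (chr1:193294353-193343878), and the first is shown.
Lamb1: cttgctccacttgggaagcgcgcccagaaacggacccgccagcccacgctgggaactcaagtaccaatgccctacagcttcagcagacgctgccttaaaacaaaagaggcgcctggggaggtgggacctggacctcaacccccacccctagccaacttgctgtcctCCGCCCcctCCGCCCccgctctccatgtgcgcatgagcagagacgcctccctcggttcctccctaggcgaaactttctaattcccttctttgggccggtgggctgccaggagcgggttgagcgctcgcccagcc
Lama5: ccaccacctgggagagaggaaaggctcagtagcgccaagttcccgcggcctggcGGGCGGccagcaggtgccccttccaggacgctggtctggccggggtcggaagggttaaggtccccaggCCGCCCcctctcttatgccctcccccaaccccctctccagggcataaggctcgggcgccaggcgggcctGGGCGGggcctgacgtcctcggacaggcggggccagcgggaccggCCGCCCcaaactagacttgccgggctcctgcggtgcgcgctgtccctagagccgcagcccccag
Lamb3: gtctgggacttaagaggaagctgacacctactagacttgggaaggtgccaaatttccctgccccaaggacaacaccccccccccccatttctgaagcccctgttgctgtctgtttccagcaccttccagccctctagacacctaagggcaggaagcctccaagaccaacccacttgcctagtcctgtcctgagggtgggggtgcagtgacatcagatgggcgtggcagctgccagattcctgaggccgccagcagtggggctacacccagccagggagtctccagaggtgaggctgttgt

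To compare chains with each other, levels were divided by exon length (RPKM, the CPM per kilobase), and each chain is given as its share of the summed RPKM of its class. Lama5 made up 19.9% ± 1.43 (SD, n = 3) of laminin α RPKM in MaSC/basal, 73.3% ± 2.57 in LP and 95.0% ± 1.82 in the ML cells. The shares of Lama1 were 35.9% ± 4.77, 5.30% ± 1.5 and 0.466% ± 0.344 in the same order, and those of Lama3 38.0% ± 3.39, 9.93% ± 1.91 and 2.75% ± 1.01. These 3 chains thus divided the α RPKM of MaSC/basal cells, whereas nearly all of it came from Lama5 in ML cells. The class shares are descriptions with no test. Among β chains, the shares of Lamb2 were 11.9% ± 0.726, 41.0% ± 4.50 and 59.5% ± 8.54, those of Lamb1 39.1% ± 3.33, 14.9% ± 2.46 and 20.2% ± 1.84, and those of Lamb3 49.0% ± 2.79, 44.1% ± 5.89 and 20.3% ± 6.89. The summed α RPKM was 304 ± 26.0 in MaSC/basal, 82.3 ± 6.76 in LP and 226 ± 67.6 in the ML cells.

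**Figure D3:**
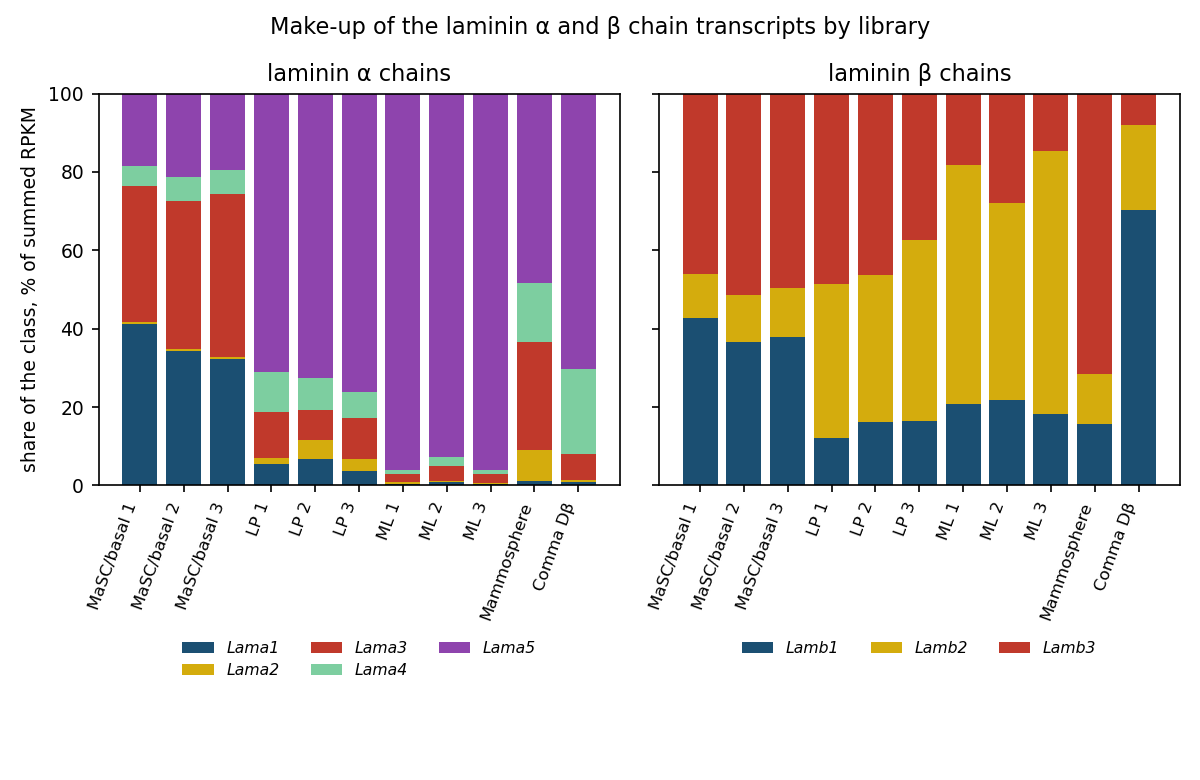
Stacked bars give the share of each chain in the summed RPKM of the laminin α and β chains (y axis, percent) in each of the 11 libraries (x axis). Lama5 takes 95.0% ± 1.82 of the α bar in ML libraries and 19.9% ± 1.43 in MaSC/basal libraries, and Lamb1 takes 70.3% of the β bar in the Comma Dβ library.

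Ratios of chains within a library do not depend on library scaling, and 8 were compared between the 3 MaSC/basal and the 6 luminal libraries by an exact two-sided permutation test over all 84 splits, whose smallest p is 0.0238, with p-values adjusted over the 8. The pair of ratios to Itgb1, a sorting antigen, are given with their chains and without a p. The log2 ratio of Lama3 to Lama5 was 0.94 ± 0.13 in MaSC/basal and -4.04 ± 1.30 in luminal libraries, a difference of 4.97 (exact p = 0.0238, adjusted p = 0.0381). The luminal spread holds the gap between LP (-2.90 ± 0.30) and ML libraries (-5.17 ± 0.54), which the test takes as 1 group of 6. Every MaSC/basal library lay above every luminal library. The log2 ratio of Lamb2 to Lamb1 differed by -3.22 with all MaSC/basal libraries below all luminal ones (exact p = 0.0238, adjusted p = 0.0381). Both calls were lost in 8 of the 9 fits without 1 library, all but that without LP replicate 2 (adjusted p up to 0.114), where fewer splits raise the smallest p that can be reached. The ratio of Lamb3 to Lamb1 did not pass the threshold, with a difference of -0.43 (exact p = 0.5, adjusted p = 0.5). Its values were 0.33 ± 0.20 in MaSC/basal, 1.57 ± 0.42 in LP and -0.04 ± 0.36 in the ML libraries, so that LP cells stood above both others.

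A trimer needs all of its chains, so for each of 14 known laminin trimers the chain with the lowest RPKM was taken as a summary of the trimer. In MaSC/basal cells the trimer of Lama3, Lamb1 and Lamc1 had a lowest chain of 116 ± 19.6 RPKM and that of Lama1, Lamb1 and Lamc1 108 ± 4.64. The same values were 8.09 ± 0.955 and 4.41 ± 1.53 in LP and 5.94 ± 1.63 and 0.999 ± 0.631 in the ML cells. The α chain was the lowest of both trimers in all 11 libraries. In LP and ML cells the trimer with the highest such value was that of Lama5, Lamb2 and Lamc1, at 21 ± 3.12 and 29.8 ± 0.465 RPKM, with Lamc1 as its lowest chain in all 6 luminal libraries, against 52.8 ± 6.29 in MaSC/basal cells, where Lamb2 was lowest. These are transcript levels, and no assembled protein was measured.

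The laminin-binding integrins comprise Itga3, Itga6 and Itga7 with Itgb1, and Itga6 with Itgb4, the receptor of hemidesmosomes. Itga6 (CD49f, a common marker of basal cells) had 1237, 1355 and 1820.0 CPM in MaSC/basal, 316, 451 and 398 in LP and 400.1, 436 and 400.5 in the ML libraries. It was 3.79-fold and 3.57-fold higher in MaSC/basal cells (log2 fold change 1.92 ± 0.20, adjusted p = 2.32e-05, and log2 fold change 1.83 ± 0.20, adjusted p = 2.75e-05), while the luminal populations overlapped (log2 fold change -0.09 ± 0.19, adjusted p = 0.763). Itga3 had 677, 627 and 721 CPM in MaSC/basal, 105, 110.1 and 123 in LP and 231, 212 and 194 in the ML libraries, without overlap. It was higher in MaSC/basal cells (log2 fold change 2.58 ± 0.15, adjusted p = 5.96e-07, and log2 fold change 1.67 ± 0.14, adjusted p = 5.19e-06) and higher in ML than in LP cells (log2 fold change -0.91 ± 0.14, adjusted p = 0.00161). Itga7, the main laminin receptor of muscle, was low, with 5.68, 6.64 and 8.03 CPM in MaSC/basal, 1.02, 1.97 and 2.24 in LP and 3.39, 4.61 and 5.33 in the ML libraries. It was lowest in LP cells (log2 fold change 1.97 ± 0.29, adjusted p = 0.000243 for MaSC/basal over LP, and log2 fold change -1.35 ± 0.29, adjusted p = 0.00721 for LP over ML). The difference between MaSC/basal and ML cells passed only with library batch as a replicate block (log2 fold change 0.61 ± 0.27, adjusted p = 0.0743 without and 0.00946 with the block).

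Itgb1, the shared β chain and sorting antigen, had 1291, 1202 and 1500.2 CPM in MaSC/basal, 539.6, 622 and 554 in LP and 531, 609 and 554 in the ML libraries. It stood 2.33-fold and 2.36-fold higher in MaSC/basal cells, along the gate, and overlapped between LP and ML cells. Itgb4 had the smallest differences of these chains between MaSC/basal and LP cells. It had 206, 293 and 220.5 CPM in MaSC/basal, 178, 142 and 154 in LP and 174, 157 and 158 in the ML libraries, with log2 fold changes of 0.60 ± 0.16 (adjusted p = 0.0086) and 0.56 ± 0.16 (adjusted p = 0.0126) for MaSC/basal over LP and ML. The log2 ratio of Itgb4 to Itgb1 was -3.04 ± 0.39 in MaSC/basal and -2.38 ± 0.20 in luminal libraries, a description only, since Itgb4 was itself higher in MaSC/basal cells and the direction of the ratio follows Itgb1, on which the cells were gated. The ratio of Itga6 to Itga3 was 1.31 ± 0.23 in MaSC/basal, 1.98 ± 0.24 in LP and 1.17 ± 0.15 in the ML libraries on the log2 scale (exact p = 0.429, adjusted p = 0.490 for MaSC/basal against luminal).

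Itga1 and Itga2, collagen receptors with Itgb1, are neighbours on chromosome 13, 26.0 kb apart, and had different patterns. Itga1 (chr13:114958079-115101964), which prefers type IV collagen, had 43.5, 60.5 and 67.7 CPM in MaSC/basal, 3.32, 6.42 and 3.36 in LP and 1.47, 3.20 and 2.69 in the ML libraries, with MaSC/basal above the others in every library. It was 12.9-fold and 23.1-fold higher in MaSC/basal cells (log2 fold change 3.69 ± 0.36, adjusted p = 1.38e-05, and log2 fold change 4.53 ± 0.37, adjusted p = 4.32e-06), and higher in LP than in ML cells only with the replicate block (log2 fold change 0.84 ± 0.34, adjusted p = 0.0875 without and 0.0148 with it). Itga2 (chr13:114833081-114932100), which prefers fibrillar collagen and also binds laminin, had 62.6, 53.0 and 103 CPM in MaSC/basal, 159, 149 and 106 in LP and 56.3, 79.9 and 38.4 in the ML libraries. LP libraries lay above the others. Itga2 was higher in LP than in MaSC/basal cells (log2 fold change -0.92 ± 0.31, adjusted p = 0.0263) and than in ML cells (log2 fold change 1.24 ± 0.31, adjusted p = 0.0141), and the first call was lost without MaSC/basal replicate 1 or 2 or LP replicate 1 or 2 (adjusted p up to 0.0969) and the second without ML replicate 1 (0.0511). The log2 ratio of Itga2 to Itga6 differed by -2.18 between MaSC/basal and luminal libraries (exact p = 0.0238, adjusted p = 0.0381), and this call too was lost in 8 of the 9 fits without 1 library. The ratio was -4.38 ± 0.27 in MaSC/basal, -1.50 ± 0.47 in LP and -2.89 ± 0.47 in the ML libraries. The other collagen receptors, Itga10 (3.07 to 7.16 CPM in sorted libraries) and Itga11 (0.890 to 6.71 CPM), were low and not called in any comparison.

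Integrins that bind the RGD sequence of fibronectin, vitronectin and latent TGFβ were split between the populations. Itga5, the fibronectin receptor chain, had 168, 157 and 420.2 CPM in MaSC/basal, 22.3, 40.7 and 30.5 in LP and 48.3, 55.5 and 51.8 in the ML libraries. MaSC/basal replicate 3 stood well above the other MaSC/basal libraries, which still lay above all luminal ones. Itga5 was 7.94-fold higher in MaSC/basal than in LP and 4.78-fold higher than in the ML cells (log2 fold change 2.99 ± 0.39, adjusted p = 9.76e-05, and log2 fold change 2.26 ± 0.37, adjusted p = 0.000477), or 5.24-fold and 3.15-fold without replicate 3. The same library had the highest values of Itga2b, the platelet fibrinogen receptor chain (10.6, 10.6 and 25.3 CPM in MaSC/basal, 5.68, 8.31 and 5.61 in LP, 13.7, 10.0 and 11.8 in ML libraries). Itga2b was higher in MaSC/basal than in LP cells (log2 fold change 1.24 ± 0.35, adjusted p = 0.0118). Pf4 and Gp9, platelet genes, were at 0.109 and 0.176 CPM on average in MaSC/basal cells.

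Several chains of this class peaked in LP cells. Itga8, a receptor of nephronectin, had 196, 205 and 261 CPM in MaSC/basal, 358, 372 and 312 in LP and 61.2, 118 and 46.7 in the ML libraries, with LP above MaSC/basal and MaSC/basal above ML in every library. It was 4.61-fold higher in LP than in ML cells (log2 fold change 2.20 ± 0.30, adjusted p = 0.00112) and higher in MaSC/basal than in ML cells (log2 fold change 1.55 ± 0.30, adjusted p = 0.00128). Between MaSC/basal and LP cells it was called only with the replicate block (log2 fold change -0.66 ± 0.29, adjusted p = 0.0793 without and 0.00942 with it). Itgb3, the sorting antigen that divides LP from ML, had 69.2, 64.7 and 73.3 CPM in MaSC/basal, 241, 279 and 149.5 in LP and 8.68, 34.0 and 4.51 in the ML libraries. ML replicate 2 was several times the other ML libraries. Among the other chains called higher in LP than in ML cells, it was the highest ML library for all but Itgav and Itgb6. The LP markers Kit and Elf5 summed to 251, 435 and 210 CPM in ML replicates 1, 2 and 3. The cause was not tested. The fold of LP over ML was 13.9 with all libraries and 33.3 without ML replicate 2, along the gate, and that of MaSC/basal over ML was 4.31 (log2 fold change 2.11 ± 0.59, adjusted p = 0.0109) and 10.3 without that library. The value of MaSC/basal over LP was -1.69 ± 0.58 (adjusted p = 0.0288), a call lost without any 1 of the MaSC/basal replicates or without LP replicate 1 or 2 (adjusted p up to 0.0842).

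Itgb8, which with Itgav activates latent TGFβ, had 36.1, 35.2 and 33.6 CPM in MaSC/basal, 70.6, 47.6 and 53.1 in LP and 11, 16.7 and 8.89 in the ML libraries, and was the 1 member past the large threshold between LP and ML cells (4.64-fold, log2 fold change 2.21 ± 0.24, adjusted p = 0.0008). Its populations did not overlap, and its call against MaSC/basal cells (log2 fold change of MaSC/basal over LP -0.71 ± 0.23, adjusted p = 0.0218) was lost without any 1 MaSC/basal replicate or LP replicate 1 (adjusted p up to 0.0834). Itgb6, another TGFβ-activating chain of epithelia, had 7.04, 6.56 and 8.63 CPM in MaSC/basal, 34.5, 24.2 and 31.4 in LP and 21.2, 18.7 and 16.5 in the ML libraries. It was lowest in MaSC/basal cells (log2 fold change -2.02 ± 0.19, adjusted p = 1.14e-05, and log2 fold change -1.34 ± 0.19, adjusted p = 0.000145) and higher in LP than in ML cells (log2 fold change 0.67 ± 0.18, adjusted p = 0.02), the last not without LP replicate 1 or 3 or ML replicate 3 (adjusted p up to 0.0715). Itgb5, a vitronectin receptor chain, was instead highest in ML cells, with 122, 146 and 104 CPM in MaSC/basal, 106, 97.9 and 103 in LP and 189.9, 168 and 140.4 in the ML libraries (log2 fold change -0.69 ± 0.16, adjusted p = 0.00957 for LP over ML, and log2 fold change -0.42 ± 0.16, adjusted p = 0.0421 for MaSC/basal over ML, where the libraries overlapped). The last call was lost in 7 of the 9 fits without 1 library, all but those without MaSC/basal replicate 2 or ML replicate 3 (adjusted p up to 0.153). The log2 ratio of Itgb5 to Itgb1 was lower in every MaSC/basal library than in any luminal one, by -1.31, but Itgb1 is the antigen of the gate and stood 1.22 and 1.24 log2 units higher in MaSC/basal cells, so this ratio is a description and no independent finding. Itgav, their shared α chain, had 435, 469.8 and 524 CPM in MaSC/basal, 614, 719.8 and 389 in LP and 364, 355 and 303 in the ML libraries (log2 fold change 0.75 ± 0.22, adjusted p = 0.025 for LP over ML). The call was lost without LP replicate 1 or 2 or ML replicate 1 or 3 (adjusted p up to 0.0807). LP replicate 3 was the lowest LP library for Itgav, Itgb3 and Itga8.

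**Figure D4:**
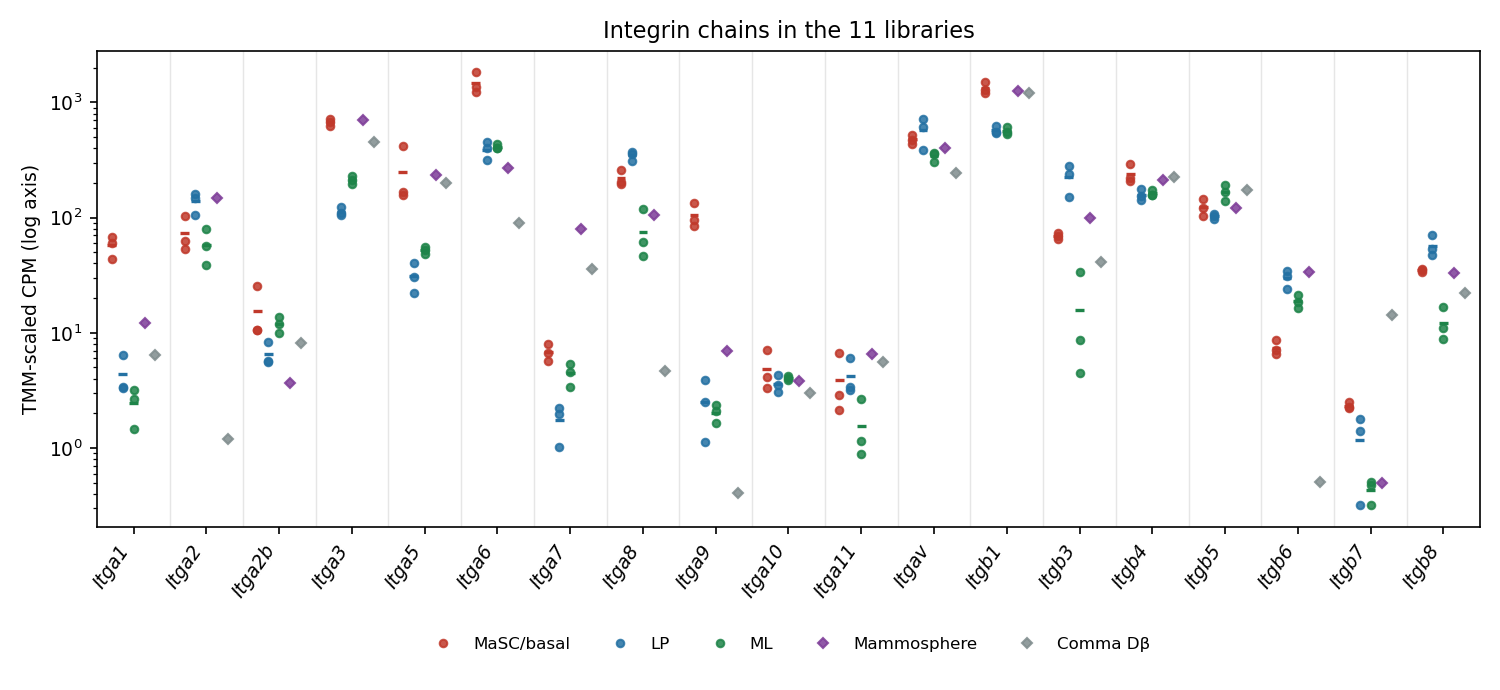
Each symbol is the TMM-scaled CPM (log axis) of 1 integrin chain (x axis) in 1 library, for the chains that reached at least 5 CPM in a library, with circles for replicates of sorted populations, a bar at their mean, and diamonds for the mammosphere and Comma Dβ libraries. Itga9 separates MaSC/basal from luminal libraries most widely, and Itgb3, Itgb8, Itga8 and Itga2 are highest in LP libraries.

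Itga9, a receptor of tenascin C, VCAM1 and the fibronectin EDA segment, had the largest fold change of the integrins. Its level was 94.7, 133 and 85.0 CPM in MaSC/basal, 1.13, 3.89 and 2.51 in LP and 1.64, 2.35 and 2.10 in the ML libraries. MaSC/basal libraries stood far above the luminal ones, which overlapped. Itga9 was 40.4-fold higher than in LP (log2 fold change 5.34 ± 0.40, adjusted p = 2.95e-06) and 50.9-fold higher than in ML cells (log2 fold change 5.67 ± 0.41, adjusted p = 1.88e-06). Itga4, which binds some of the same ligands, reached at most 0.722 CPM, in the mammosphere library. Its log2 fold change of MaSC/basal over LP was 2.32 ± 0.93 (adjusted p = 0.0541) and over ML 1.66 ± 0.85 (adjusted p = 0.119), with 0.00334 and 0.00493 under the replicate block.

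The chains known from leukocytes were at low levels. Itgb2, the common β chain of leukocyte integrins, had 2.41, 1.87 and 3.49 CPM in MaSC/basal, 1.13, 1.142 and 0.961 in LP and 0.368, 0.651 and 0.456 in the ML libraries, without overlap (log2 fold change 1.25 ± 0.32, adjusted p = 0.00712, and log2 fold change 2.35 ± 0.34, adjusted p = 0.000182). Its call between LP and ML cells (log2 fold change 1.10 ± 0.34, adjusted p = 0.0348) was lost in 6 of the 9 fits without 1 library, all but those without MaSC/basal replicate 2 or 3 or ML replicate 2 (adjusted p up to 0.125). Itgal, its lymphocyte partner, had 0.797, 1.06 and 1.06 CPM in MaSC/basal, 0.0705, 0.543 and 0.534 in LP and 1.84, 2.25 and 1.96 in the ML libraries and was highest in ML cells (log2 fold change -2.38 ± 0.51, adjusted p = 0.00684 for LP over ML). The value of MaSC/basal over ML was -1.06 ± 0.45 (adjusted p = 0.068 without and 0.0473 with the replicate block), and that of MaSC/basal over LP, 1.32 ± 0.50 (adjusted p = 0.0457), was lost in 8 of the 9 fits without 1 library, all but that without LP replicate 2 (adjusted p up to 0.101). Itgae, the chain that holds lymphocytes to E-cadherin, was lowest in MaSC/basal cells, with 0.170, 0.219 and 0.245 CPM against 2.36, 1.09 and 1.71 in LP and 1.07, 0.957 and 2.23 in the ML libraries (log2 fold change -3.0 ± 0.46, adjusted p = 0.00031, and log2 fold change -2.70 ± 0.46, adjusted p = 0.000555). Its partner Itgb7 had 2.27, 2.51 and 2.20 CPM in MaSC/basal, 1.80, 1.40 and 0.320 in LP and 0.481, 0.505 and 0.319 in the ML libraries (log2 fold change 2.37 ± 0.47, adjusted p = 0.00163 for MaSC/basal over ML). Its call between LP and ML cells (1.43 ± 0.48, adjusted p = 0.0464) had overlapping libraries and was lost in 8 of the 9 fits, all but that without LP replicate 3 (adjusted p up to 0.144).

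Leukocyte markers were low in all sorted libraries. The summed level of Ptprc, Cd3e, Cd79a, Csf1r, Laptm5, Tyrobp and Coro1a was 5.62 to 8.54 CPM in MaSC/basal libraries, 2.40 to 5.23 in LP libraries and 1.56 to 6.65 in the ML libraries. Of the 5 tested, 2 (Cd79a and Coro1a) were higher in MaSC/basal cells in each comparison with luminal cells, where 29.4% (LP) and 28.9% (ML) of all genes were. Both exceeded the 0.5 CPM of the filter in MaSC/basal libraries only, so the filter favoured this direction and the count cannot be weighed against these shares. Cd3e and Tyrobp were not tested, and their means were 0.204 and 0.238 CPM in MaSC/basal cells against 0.627 and 0.269 in LP cells. Ptprc was at 0 in 1 library. The part of leukocyte genes in the levels of Itgb2, Itgal, Itgae and Itgb7 was not tested. Itgam was not called in any comparison (at most 1.58 CPM, in the mammosphere library), and 68.7% of its exon bases overlap another gene of the annotation on the same strand. Itgax (at most 0.368 CPM) and Itgad (at most 0.0565 CPM) did not pass the filter. Among the other members the overlap with any 1 other gene was largest for Itga10, at 33.5% of exon bases, and at most 8.60% elsewhere, where Itgad overlaps 4 genes.

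Among 24 known integrin pairs, the pair of Itga6 and Itgb1 had the highest lowest-chain level in each sorted population, at 313 ± 39.1 RPKM in MaSC/basal, 92.3 ± 16.2 in LP and 98 ± 4.95 in the ML cells. In the other 11 pairs with Itgb1 the α chain was the lower one in every library. Itga6 with Itgb4 had 38.9 ± 7.51, 25.6 ± 2.96 and 26.4 ± 1.55 RPKM, with Itgb4 as the lower chain in all 9 sorted libraries. Itga3 with Itgb1 had 139 ± 9.73, 23.2 ± 1.85 and 43.7 ± 3.87 RPKM. Thus the second place was held by the Itga3 pair in MaSC/basal cells and by the Itgav and Itgb1 pair in LP cells (81.4 ± 23.9). In ML cells the Itgav and Itgb1 pair (48.3 ± 4.66) and the Itgav and Itgb5 pair were level in this place. In the pair of Itgav and Itgb3 the β chain was the lower one in all 11 libraries, with 38.6 ± 11.5 RPKM in LP against 2.72 ± 2.76 in ML cells. The pair of Itgav and Itgb5 had 31.3 ± 1.32 RPKM in LP cells, where Itgb5 was the lower chain, and 48.2 ± 4.77 in ML cells, where Itgav was the lower chain in ML replicates 1 and 2 and Itgb5 in replicate 3. As shares of integrin α RPKM, Itga6 made up 49.8% ± 1.27 in MaSC/basal, 30.6% ± 4.96 in LP and 41.7% ± 2.32 in the ML cells, and Itga8 and Itga2 together with Itgav took more of the sum in LP cells (20.0% ± 1.35, 10.8% ± 1.81 and 26.6% ± 5.08) than in MaSC/basal cells (5.46% ± 0.179, 2.42% ± 0.441 and 9.74% ± 0.951).

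Cultured cells were set beside the mean of the 3 MaSC/basal libraries as differences of log2 CPM, with no test since each culture had 1 library. In the mammosphere library 6 of 35 members were higher and 12 lower by more than 1 log2 unit, where 19.7% and 20.0% of all genes were, and in the Comma Dβ library 3 were higher and 20 lower, where 16.9% and 24.8% were. The median difference was -0.22 in mammospheres and -1.51 in Comma Dβ cells, with -0.01 and 0.02 over all genes. Each laminin α and β chain lay below the MaSC/basal mean by more than 1 log2 unit in Comma Dβ cells, as did Lamc1 and Lamc3, and 5 of 11 laminins did in mammospheres. Both cultures share the MaSC/basal libraries as reference. Krt5, Krt14, Trp63 and Acta2 summed to 3273 CPM in mammospheres and 1494 in Comma Dβ cells, against 12427 to 16392 in MaSC/basal libraries. Krt8, Krt18 and Krt19 summed to 1983 and 67.5 CPM, against 466 to 660.0. The study describes the mammosphere profile as lying between those of basal and luminal cells. Changes within basal cells cannot be told apart here from a changed mix or identity of cells.

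Lama1 differed most, with 11.2 CPM in mammospheres and 1.97 in Comma Dβ cells against 1030.2 ± 44.2 (SD, n = 3) in MaSC/basal cells, log2 differences of -6.52 and -8.99. Lama3 and Lamb3 parted in mammospheres. Lamb3 was at 762 CPM, just below the lowest MaSC/basal library, while Lama3 was at 285 CPM. In Comma Dβ cells both were low, at 34.4 and 15.6 CPM, Lamb1 was the leading β chain (429.6 CPM, 70.3% of class RPKM), and Lamc1 was at 436 CPM. The highest trimer level by the lowest chain was that of Lama5, Lamb1 and Lamc1 in mammospheres (37.6 RPKM), and in Comma Dβ cells it was shared by this trimer and that of Lama5, Lamb2 and Lamc1, at 15.7 RPKM.

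Laminin receptors had another make-up in both cultures. Itga6 was at 271 CPM in mammospheres and 89.7 in Comma Dβ cells, below every sorted library, whereas Itga3 was at 696 and 454 CPM. The share of integrin α RPKM was 16.2% for Itga6 and 36.0% for Itga3 in mammospheres and 10.1% and 44.5% in Comma Dβ cells, so that Itga3 led in place of Itga6. Itgb1 (1265 and 1194 CPM) and Itgb4 (214 and 224 CPM) differed from the MaSC/basal mean by less than 1 log2 unit. Comma Dβ cells were the only library in which Itga6 rather than Itgb4 was the lower chain of their pair. Itga5 was within the MaSC/basal range in both cultures (235 and 198 CPM). Itga9, Itga1 and Itga8 were low in both, at 7.01, 12.0 and 105 CPM in mammospheres and 0.408, 6.40 and 4.70 in Comma Dβ cells.

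A few chains were higher in culture. Itga7 was at 78.9 CPM in mammospheres and 35.5 in Comma Dβ cells, against 5.68, 6.64 and 8.03 in the MaSC/basal libraries. Lama2 (76.1 CPM), Itgb6 (33.9 CPM) and Itga2 (148 CPM) were above all MaSC/basal libraries in mammospheres and at 0.953, 0.511 and 1.19 in Comma Dβ cells, and Itgb7 reached 14.3 in Comma Dβ cells alone. In the mammosphere library the summed skeletal muscle markers (Acta1, Ckm, Mylpf and Tnnt3) were at 72.6 CPM against 1.39 to 2.01 in MaSC/basal libraries, with none at 0, pericyte markers at 207 CPM, and fibroblast markers (Pdgfra, Col1a1, Col1a2, Dcn and Lum) at 1730.4 against 407 to 536 CPM. In Comma Dβ cells the sums were 1.53, 342 and 2045 CPM. Not all markers rose with their sum. Pdgfrb made up 341 CPM of the pericyte sum in Comma Dβ cells, where Rgs5, Cspg4 and Kcnj8 lay below their MaSC/basal means. Rgs5 and Kcnj8 also lay below them in mammospheres. Dcn was lower in both cultures (98.6 and 91.5 CPM against a MaSC/basal mean of 189), and Lum was lower in Comma Dβ cells (0.681 against 14.1). The part of these markers in the levels of Itga7 and Lama2 was not tested.

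**Figure D5:**
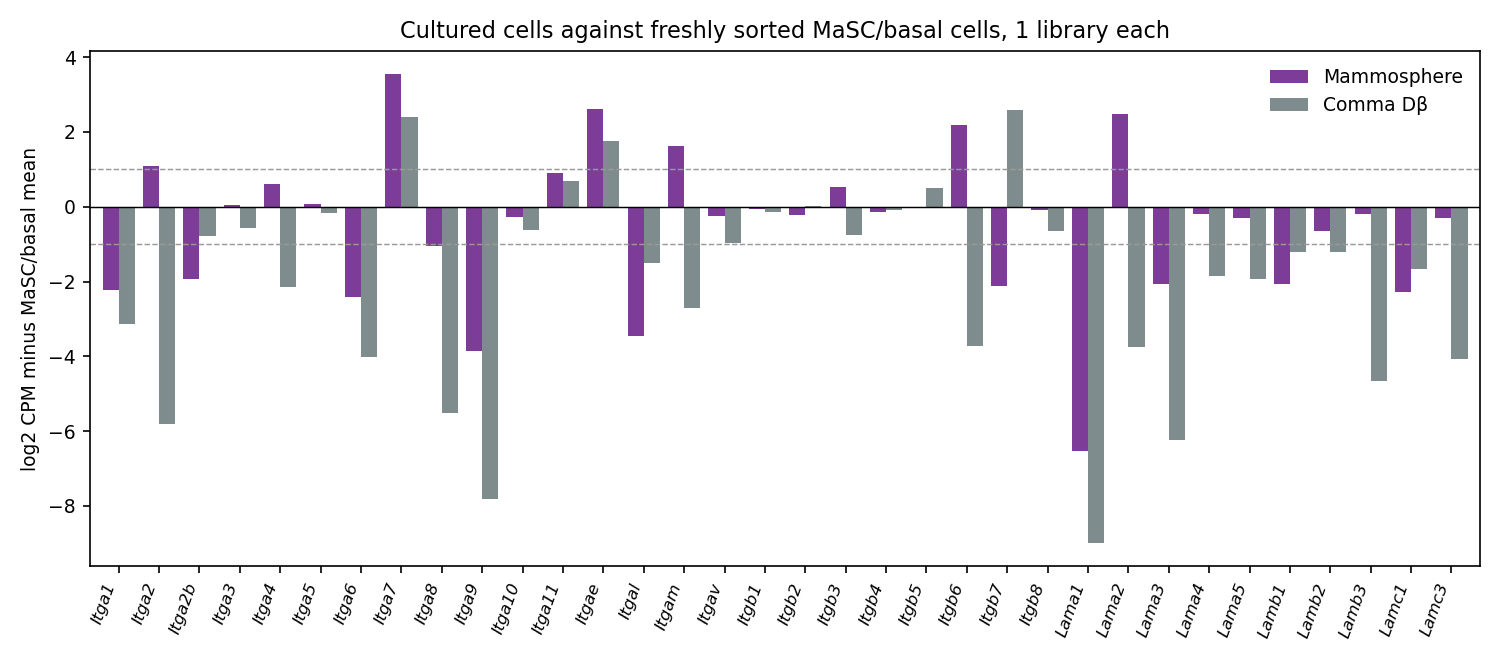
Bars give the log2 CPM of each gene named (x axis) in the mammosphere and Comma Dβ libraries minus the mean of the 3 MaSC/basal libraries (y axis), with dashed lines at 1 and -1. Lama1 has the lowest bars in both cultures, at -6.52 and -8.99, and Itga7 the highest bar in mammospheres, at 3.55.

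Genes whose products work with these chains were described from lists that were chosen with earlier results of these data known. Of 12 genes for other laminin receptors and basement membrane components, 11 were higher and 1 lower in MaSC/basal than in LP cells, with a median log2 fold change of 1.88 (all genes -0.01 in each comparison), and 11 higher and 0 lower than in ML cells (2.21). Col4a1 and Col4a2, the chains of type IV collagen, had log2 fold changes of 5.15 and 5.53 over LP and 6.17 and 6.77 over ML cells, and Hspg2 (perlecan) 3.46 and 4.39. All genes were called at 29.4% and 28.0% in these directions against LP and at 28.9% and 29.7% against ML cells. Between LP and ML cells 3 of the 12 were higher in LP and 1 in the ML cells (14.3% and 17.5% of all genes), with Nid1, the laminin-binding nidogen, on the LP side (1.44, adjusted p = 0.0495) and Sdc1, a syndecan, on the ML side (-0.95, adjusted p = 0.00262).

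Of 6 hemidesmosome partners of the Itga6 and Itgb4 pair, 5 were higher in MaSC/basal than in LP cells and 0 lower (median 4.23), and 5 higher and 1 lower than in ML cells (3.33), with the same shares of all genes called. Col17a1, a transmembrane collagen that binds Itgb4, averaged 1249.7 CPM in MaSC/basal, 11.6 in LP and 16.4 in the ML cells (log2 fold changes 6.74 and 6.27, adjusted p = 3.95e-05 and 4.97e-05). Krt5 and Krt14, which also served as basal markers, were higher by 7.87 and 7.81 log2 units than in LP cells. Plec, Dst and Cd151 were higher in ML than in LP cells (log2 fold changes of LP over ML -1.25, -0.84 and -0.76, adjusted p = 0.0017, 0.0362 and 0.00262).

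Of 23 tested genes for integrin adaptors and activators, 12 were higher and 1 lower in MaSC/basal than in LP cells (median 0.58), and 14 higher and 2 lower than in ML cells (0.90), where 29.4% and 28.0% of all genes were called against LP and 28.9% and 29.7% against ML cells. Tns1, a tensin that binds β chain tails, averaged 226 CPM in MaSC/basal, 20.0 in LP and 13.2 in the ML cells (3.50 and 4.10 log2 units, adjusted p = 8.67e-06 and 3.26e-06), and Lims2, a PINCH adaptor, 4.97, 0.755 and 0.709 CPM. Ptk2b, a kinase related to focal adhesion kinase, was lower in MaSC/basal cells, with 4.45 CPM against 57.2 in LP and 84.5 in the ML cells (-3.69 and -4.25 log2 units, adjusted p = 7.75e-07 and 3.5e-07). Tns3, Tns4 and Lims1 were higher in LP than in ML cells (1.94, 1.32 and 0.60 log2 units, adjusted p = 0.00199, 0.0238 and 0.00455).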

How the data were processed

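RNA-seq libraries of sorted and cultured mouse mammary epithelial cells were analysed from the tables of raw counts that the authors deposited, 1 per library, with 27179 Entrez genes, their exon lengths and integer counts. The authors aligned single-end reads to mm10 (GRCm38) with Rsubread and counted them with featureCounts, whose handling of strand and of reads that map to several places is not given in the sources used here. Symbols of 25275 genes and positions came from a RefSeq table (GRCm38.p6) and exon overlaps from GENCODE M21. The labels name version v2 of the TruSeq RNA kit except for batch 1, and the methods of the study name it throughout. Members and gene lists were chosen with earlier results of these data known.

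Genes over 0.5 CPM in at least 3 libraries (15422) were fitted in R 4.3.3 with edgeR 4.0.16 (TMM factors, glmQLFit and glmQLFTest, group means of 5 sample types over all 11 libraries), with Benjamini-Hochberg adjustment over all genes. SE is the size of the log2 fold change over the square root of F. Cultures were compared as log2 CPM with a prior count of 2. Chain ratios were log2 of counts plus 0.5 per exon length, tested with SciPy 1.17.1. Groups came from the labels, replicates were numbered in accession order, and the replicate block is the library batch of the labels. Deviations of libraries of a batch from their group means correlated at -0.12 to 0.53. No replicate pair matched within counting noise (chi-square per degree of freedom at least 52.3). On simulated counts of 15422 genes with 200 changed by 2 log2 units between MaSC/basal and LP cells, edgeR recovered 200 with 13 false calls. The simulation gave all genes the same dispersion and no batch effect, so these numbers are no error rate for the real data. Alternatives were DESeq2 1.42.0, limma 3.58.1 voom, other scaling and filters, sorted cells alone, the block, and each replicate left out.

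The members were named by symbol, with values where the mean reached 1 CPM in a sample type, and from each list the 3 called genes with the largest change per comparison. Results that need certain genes are not reported here. The microarray and screen data of the study were not analysed here.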

Additional observations from a re-analysis of the deposited data

How the results depend on the processing

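Of the 68 calls on members in the comparisons of sorted cells, 55 held under every alternative and 13 were lost in at least 1 fit without 1 library. Outside the fits without 1 library, 61 held. Of 1776 recomputed fold changes of single members, 1661 stayed on their side of the threshold, 72 lost a call and 43 gained one, and no called value changed sign. The counts past the large threshold moved most. Higher in LP than in MaSC/basal cells (2), 1 member passed without scaling and 1 with limma voom. Higher in ML than in MaSC/basal cells (1), 0 passed with voom and 0 with the replicate block. Higher in LP than in ML cells (1), 3 passed with voom, 4 with DESeq2, 3 without the filter and 4 with the replicate block. Higher in ML than in LP cells (0), 1 passed without scaling and 1 with DESeq2. The cause was not tested. The replicate block gave 21 and 6 calls between MaSC/basal and LP, 22 and 5 between MaSC/basal and ML, and 12 and 7 between LP and ML cells, and it ended 1 call, that of Lamb2 against ML cells, and added the 6 named in the report.

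Without 1 library, 2 to 6 members were higher in LP than in MaSC/basal cells and 7 to 11 higher in LP than in ML cells, and those past the large threshold numbered 0 to 2 higher in LP and 0 to 1 higher in ML against MaSC/basal cells, and 0 to 4 higher in LP than in ML cells. The log2 ratio differences ranged from -2.42 to -1.94 for Itga2/Itga6, -1.50 to -1.09 for Itgb5/Itgb1, 4.65 to 5.25 for Lama3/Lama5, -3.28 to -3.11 for Lamb2/Lamb1 and -0.88 to -0.51 for Itgb4/Itgb1. The calls of Itga2/Itga6, Lama3/Lama5 and Lamb2/Lamb1 were each lost in 8 of the 9 fits, all but that without LP replicate 2 (adjusted p up to 0.114). Leaving out a library gives fewer splits, which raise the smallest p of the permutation test. The ratios to Itgb1, a sorting antigen, are descriptions only. Depth limits statements on Itga4, Itgal and Itgam, whose lowest counts were 0, 2 and 1. Strand was not stated, so overlapping genes cannot be told apart. The 2 cultures had 1 library each.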

Other observations

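Non-laminin ligands of these integrins were described from a list of 10 genes, chosen with earlier results of these data known, 9 of them tested. Against LP cells 4 were higher and 2 lower in MaSC/basal cells (29.4% and 28.0% of all genes), against ML cells 3 were higher and 3 lower (28.9% and 29.7%), and between LP and ML cells 2 were higher in LP and 1 in ML cells (14.3% and 17.5%) by edgeR, so that several of these counts are near the shares of all genes. Spp1 (osteopontin, a ligand of Itgav and Itga9 pairs) averaged 37.4 CPM in MaSC/basal, 9873 in LP and 430.0 in the ML libraries, with log2 fold changes of -8.05 and -3.52 for MaSC/basal over LP and ML (adjusted p = 5.82e-06 and 0.000332) and 4.52 for LP over ML. Npnt (nephronectin, the ligand of the Itga8 pair) averaged 5.81, 42.7 and 44.4 CPM and was lower in MaSC/basal cells (-2.88 and -2.94 log2 units, adjusted p = 8.74e-07 and 6.38e-07). Vcam1, a ligand of Itga4 and Itga9 pairs, averaged 67.6, 8.28 and 5.76 CPM and was higher in MaSC/basal cells (3.04 and 3.56 log2 units, adjusted p = 3.52e-05 and 1.24e-05). Thbs1 (thrombospondin 1) averaged 5279, 1728 and 606 CPM, with 1.61 and 3.12 log2 units for MaSC/basal over LP and ML (adjusted p = 0.00372 and 6.9e-05). Tgfb1, whose latent form Itgb6 and Itgb8 pairs activate, averaged 38.5, 26.0 and 51.6 CPM, highest in ML cells (LP over ML -0.99 log2 units, adjusted p = 0.00177). For MaSC/basal over ML the value was -0.42 log2 units (adjusted p = 0.0361), with overlapping libraries.

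Of the other marker lists, the sums of erythroid markers were 0.877 to 2.32, 1.20 to 2.14 and 3.64 to 6.70 CPM, those of adipocyte markers at most 1.71 CPM in sorted libraries, and Pf4 and Gp9 of the megakaryocyte list, which also holds Itga2b, averaged 0.109 and 0.176 CPM in MaSC/basal cells.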
